A study of Mus musculus with 2 samples.

Results

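The nuclear receptor superfamily was described in the colon of 1 mouse through 47 receptor genes. The members were chosen by name: each row of the deposited gene tables whose Ensembl gene identifier carries a listed receptor symbol was taken, which found 47 of 47 among 43346 Ensembl genes. The samples were 2 technical libraries of polyadenylated RNA from sigmoid colon, made from 1 female C57BL/6J mouse aged 10 weeks, with no treatment or altered allele named in the labels. Library 1 and library 2 carry the technical replicate numbers of the labels, and library 2 was made later, in 2015. Both libraries belong to 1 biological replicate, so every SD and every test below covers the spread between libraries or the counting error, never variation between mice.

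Nuclear receptors are transcription factors that bind DNA through a pair of zinc fingers and, in many cases, switch on a small fat-soluble ligand such as a steroid, a thyroid hormone, vitamin D, retinoic acid, a bile acid or a fatty acid. Some act as homodimers, many pair with a retinoid X receptor, and several have no known natural ligand. In the large bowel they are known for salt uptake under aldosterone (Nr3c2), for the epithelial gene programme (Hnf4a), for bile acid and xenobiotic sensing (Nr1h4, Nr1i2) and for vitamin D action (Vdr).

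The DNA contacts of the family are set by the P-box, 5 residues at the base of the first zinc finger. A pattern search of the coding sequences found that finger, 69 bases long, in 45 of the 47 members and not in Nr0b1 and Nr0b2, the pair of receptors known to lack a DNA-binding domain. Grouping by the residues of the P-box gave 9 groups. The following 3 paralogous pairs are shown as examples of pairs with the same P-box whose levels differ between the libraries, as described further on. A shared P-box is not particular to them, since each of the 13 pairs compared further on has it. Each line is the coding sequence of the first finger in the GENCODE transcript with the higher level, 5′ to 3′ on the transcript's strand, and the capitals mark the 5 codons of the P-box.
Hnf4a: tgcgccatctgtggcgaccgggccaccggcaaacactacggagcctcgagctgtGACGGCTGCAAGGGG
Hnf4g: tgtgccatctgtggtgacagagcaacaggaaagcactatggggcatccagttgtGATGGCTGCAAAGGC
Esrra: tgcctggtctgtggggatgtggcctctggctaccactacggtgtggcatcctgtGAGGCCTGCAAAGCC
Esrrg: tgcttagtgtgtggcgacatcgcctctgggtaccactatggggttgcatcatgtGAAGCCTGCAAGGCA
Nr2f6: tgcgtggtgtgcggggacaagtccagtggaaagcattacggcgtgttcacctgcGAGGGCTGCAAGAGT
Nr2f2: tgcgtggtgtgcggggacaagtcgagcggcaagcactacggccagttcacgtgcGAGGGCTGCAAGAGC

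Within each of these pairs the P-box residues are the same, and the letters differ mostly without changing the residue. Hnf4a and Hnf4g share all 23 residues of the finger while 16 of 69 bases differ, and the GC content of the finger is 68.1% in Hnf4a and 53.6% in Hnf4g. Esrra and Esrrg share 22 residues with 15 bases different, at 62.3% against 55.1% GC. Nr2f6 and Nr2f2 share 22 residues with 8 bases different, and here the finger of Nr2f6 has less GC, 59.4% against 65.2%, although its whole transcript has more. Over the 42 members with enough counts to be tested, the GC content at the third bases of the finger's codons and that of the whole transcripts had a Spearman's rho of 0.54, given as a description across genes.

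The P-box groups are of very unequal size. The largest holds 28 members, among them the thyroid hormone, retinoid, vitamin D, fatty acid, oxysterol, bile acid and xenobiotic receptors, the REV-ERBs and RORs, and the NR4A receptors. These 28 members summed to 164.6 TPM (a level corrected for depth and for transcript length, summing to the same total in each library) in library 1 and 797.5 TPM in library 2. Hnf4a and Hnf4g form a group of their own that summed to 76.4 and 369 TPM. The steroid receptor group of Nr3c1, Nr3c2 and Pgr summed to 74.7 and 75.2 TPM. The estrogen-related receptors summed to 9.30 and 98.2 TPM, the COUP-TF group of Nr2f1, Nr2f2 and Nr2f6 to 15.9 and 74.8 TPM, and Esr1 with Esr2 to 2.58 and 2.97 TPM.

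The libraries differ in depth and composition. Library 1 holds 25843064 expected counts and library 2 holds 20681574, of which mitochondrially encoded genes and their nuclear copies took 33.9% in library 1 and 8.42% in library 2. By TPM that share was 67.3% and 21.8%, and the nuclear genes share the rest. The 47 members took 38524 counts in library 1, 0.149% of its total (95% Wilson interval 0.148% to 0.151%), and 61835 counts in library 2, 0.299% of its total (0.297% to 0.301%). A gene with 0 counts could still hold up to 3, a floor of 0.116 CPM in library 1 and 0.145 CPM in library 2. These intervals and this floor express counting error alone.

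Most of the family was detected. Of the 47 members, 27 reached 1 TPM in both libraries, 9 reached it in library 2 alone and 11 stayed below it in both. At 10 TPM or more, 10 members passed in both libraries, 11 in library 1 and 22 in library 2. Nr0b1, Nr2e1, Esrrb and Nr5a1 had 0 counts in both libraries, and Nr0b2 had 0 and 2 counts; these 5 members are at or under the floor and were not tested. The summed level of the family was 369 TPM in library 1 and 1444 TPM in library 2, a mean of 906.7 TPM. Rescaled over nuclear genes alone, the sums were 1130 and 1847 TPM. In bulk tissue, fewer cells of a type and less RNA per cell cannot be told apart.

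**Figure D1:**
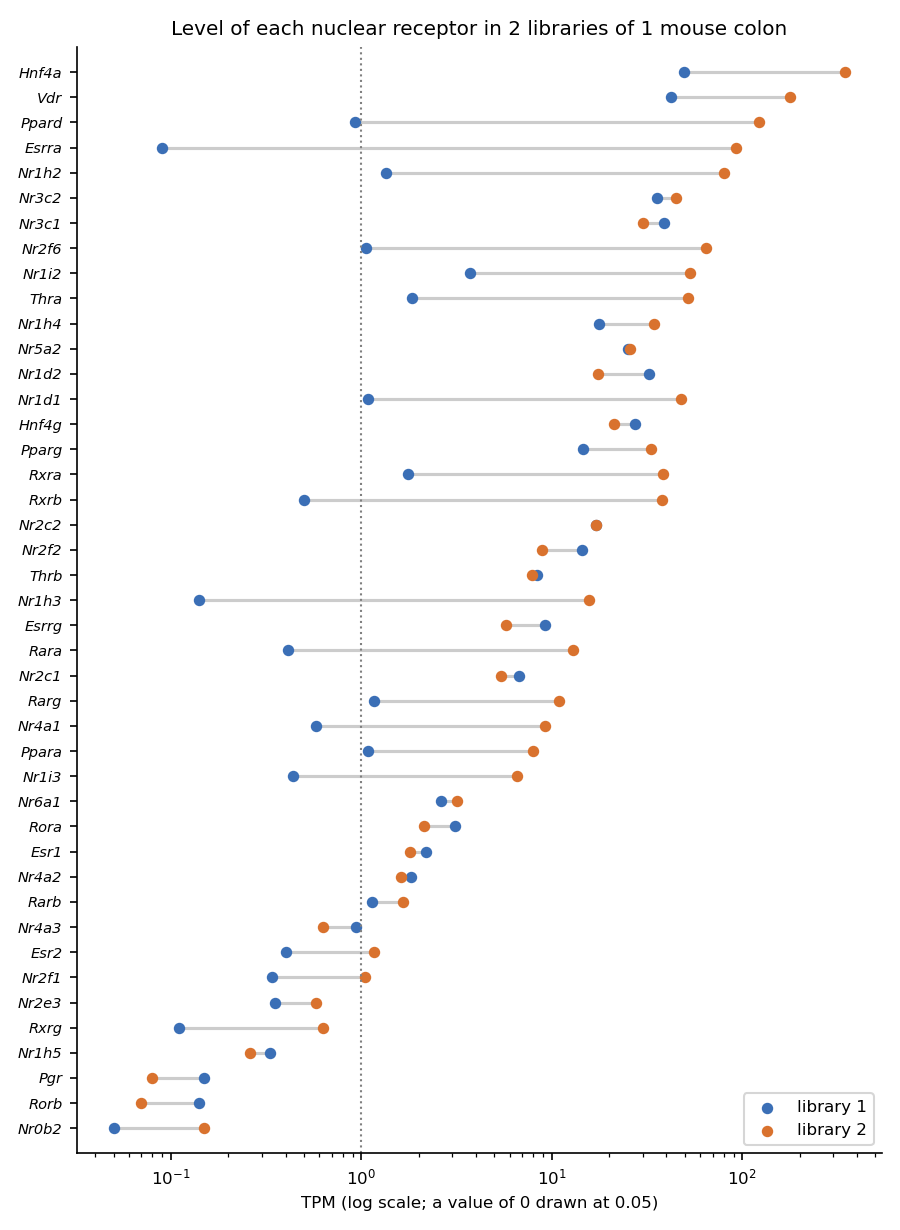
TPM of each of the 43 nuclear receptors with a count, on a log axis, in library 1 (blue) and library 2 (orange), ordered by the mean of both, with the dotted line at 1 TPM and a value of 0 drawn at 0.05. Hnf4a and Vdr are the 2 highest points in each library, and members such as Esrra, Ppard, Nr1h2 and Rxrb span more than a factor of 10 between the libraries.

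Hnf4a and Vdr ranked first and second of the family in each library. Hnf4a, a constitutively active receptor of gut and liver epithelium, stood at 49.2 TPM in library 1 and 348 TPM in library 2, which placed it at the 93.9th and 98.5th percentile of 21461 protein-coding genes. Vdr, the receptor for active vitamin D, stood at 42.4 and 178 TPM. The third member among the 10 highest of both libraries was Nr3c2. By the library ranges, most of the order of levels was not settled. Of 42 neighbouring pairs in the order of mean TPM, 38 had overlapping library ranges, Hnf4a over Vdr and Vdr over Ppard among them. In 15 of the 42 pairs, including both of these, the order was the same in both libraries. The 4 neighbours whose ranges did not overlap were Nr2c2 over Nr2f2, Nr2f2 over Thrb, Rarb over Nr4a3 and Nr1h5 over Pgr. Across the members, TPM in library 1 and library 2 had a Spearman's rho of 0.60, against 0.87 across the protein-coding genes, both given as descriptions across genes.

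The steroid receptors split by level. Nr3c1, the glucocorticoid receptor, stood at 39.0 TPM in library 1 and 30.2 TPM in library 2, and Nr3c2, the mineralocorticoid receptor through which aldosterone acts, at 35.6 and 44.9 TPM. Together they summed to 74.6 and 75.1 TPM, which was 20.2% of the family's TPM in library 1 and 5.2% in library 2. Rescaled over nuclear genes, the same pair summed to 228.3 and 96.1 TPM, so the near-equal sums hold on the TPM scale only. The receptors for gonadal steroids were low. Esr1 (estrogen receptor alpha) was at 2.18 and 1.81 TPM, Esr2 (estrogen receptor beta) at 0.40 and 1.16 TPM, and Pgr (progesterone receptor) at 0.15 and 0.08 TPM on 21 and 8 counts.

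Receptors for thyroid hormone, retinoids and vitamin D form the non-steroid endocrine members. Thra stood at 1.84 TPM in library 1 and 51.7 TPM in library 2, whereas Thrb held 8.36 and 7.87 TPM. Among the retinoic acid receptors, Rara was at 0.41 and 12.9 TPM, Rarg at 1.17 and 10.9 TPM and Rarb at 1.14 and 1.66 TPM. The retinoid X receptors, the shared partners of many other members, followed the same course: Rxra was at 1.76 and 38.5 TPM and Rxrb at 0.50 and 38.1 TPM, while Rxrg stayed at 0.11 and 0.63 TPM. The 3 retinoid X receptors therefore summed to 2.37 TPM in library 1 and 77.2 TPM in library 2. In library 1 that sum lay below the level of Vdr, Nr1h4 or Pparg, which bind DNA as partners of a retinoid X receptor, and in library 2 it lay above Nr1h4 and Pparg.

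Fatty acid, sterol and bile acid sensors came next. Pparg, the receptor best known from fat cells and also present in colon epithelium, was at 14.6 TPM in library 1 and 33.1 TPM in library 2. Ppard, a widely expressed fatty acid receptor, was at 0.93 and 122 TPM, on 65 and 4559 counts. Ppara, which drives fatty acid oxidation, was at 1.08 and 7.93 TPM. Nr1h4 (FXR), the bile acid receptor, was at 17.8 and 34.5 TPM. Rescaled over nuclear genes, Nr1h4 was at 54.37 and 44.15 TPM and Pparg at 44.6 and 42.3 TPM. The higher TPM of Nr1h4 and Pparg in library 2 is therefore not seen on that scale. Nr1h2 (LXR beta) was at 1.34 and 80.1 TPM and Nr1h3 (LXR alpha), the other oxysterol receptor, at 0.14 and 15.6 TPM. Nr1h5 was low, with 21 and 10 counts.

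Of the xenobiotic receptors, Nr1i2 (PXR) stood at 3.72 TPM in library 1 and 53.1 TPM in library 2, and Nr1i3 (CAR) at 0.44 and 6.60 TPM. Hnf4g, the paralogue of Hnf4a, was at 27.2 and 21.1 TPM. Among the receptors tied to the circadian clock, Nr1d2 (REV-ERB beta) was at 32.5 and 17.4 TPM and Nr1d1 (REV-ERB alpha), a repressor of Arntl, at 1.08 and 47.8 TPM. Rora was at 3.11 and 2.14 TPM and Rorb at 0.14 and 0.07 TPM. The labels give both libraries the same biological replicate.

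The orphan receptors ranged from abundant to undetected. Nr5a2 (LRH-1), a regulator of gut epithelium and of intestinal steroid synthesis, gave nearly equal TPM, 25.2 in library 1 and 25.7 in library 2, and Nr2c2 did the same at 17.1 in both. Nr2f2 (COUP-TFII), a receptor of mesenchyme and veins, was at 14.5 and 8.92 TPM, and Nr2f6 at 1.06 and 64.8 TPM. Esrra, a regulator of mitochondrial genes, was at 0.09 and 92.5 TPM, and Esrrg at 9.21 and 5.76 TPM. Nr2c1 stood at 6.69 and 5.43 TPM and Nr6a1 at 2.61 and 3.16 TPM. The NR4A receptors, known as immediate early genes, were low: Nr4a1 at 0.58 and 9.19 TPM, Nr4a2 at 1.82 and 1.62 TPM and Nr4a3 at 0.94 and 0.63 TPM. Nr2f1 was at 0.34 and 1.04 TPM, and Nr2e3, known from photoreceptors, at 0.35 and 0.58 TPM.

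**Figure D2:**
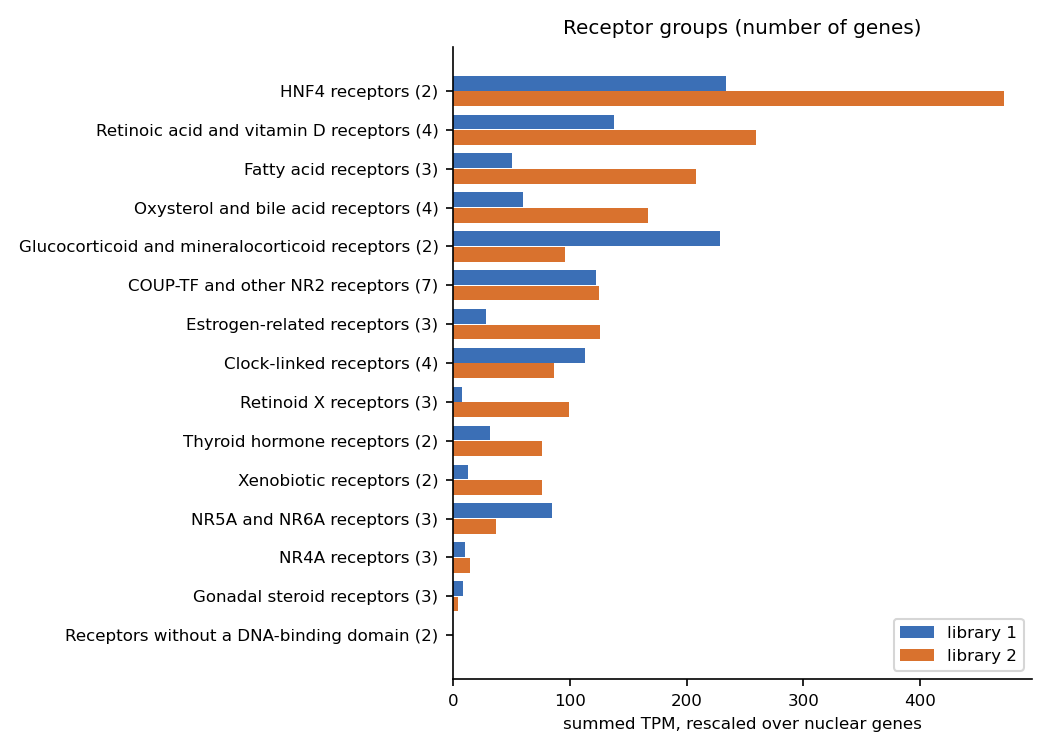
Summed TPM of each receptor group, rescaled over nuclear genes, in library 1 (blue) and library 2 (orange), with the number of genes in parentheses. The glucocorticoid and mineralocorticoid receptors sum to 228.3 and 96.1 and the fatty acid receptors to 50.8 and 208.2, so these groups change order between the libraries, while the HNF4 receptors, at 233.9 and 472.1, are the highest in both.

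The libraries were then compared gene by gene. Counts scaled by library (TMM factors) were set against each other with a two-sided exact binomial test over 15705 genes, and a gene was called at a Benjamini-Hochberg adjusted p under 0.05 and a ratio of at least 2-fold. This test compares 2 libraries, not conditions, and covers counting error only. Of the 42 members tested, 16 were called higher in library 2, 17 lower, and 9 were not called. The background was 36.9% of all genes called higher and 28.1% called lower, beside 38.1% and 40.5% of the members tested, so the share called higher was near the background. The members' median log2 ratio was −0.27, against 0.12 for all genes, and their median absolute log2 ratio was 1.66, against 1.48. On the ratio of TPM, which shifts the median of all genes by 1.13 on the log2 scale, 21 members were past 2-fold higher and 1 lower, against a background of 54.4% and 5.28%. With scaling to nuclear totals, a shift of 0.28, the member median became 0.01. When edgeR's exact test took the spread between the libraries themselves as its dispersion (its square root was 97.7%), 0 members and 0.0% of genes were called in either direction, and 5 members and 901 genes had an unadjusted p under 0.05.

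The higher calls fell on members with GC-rich transcripts and the lower calls on members with AT-rich ones. The transcript GC content of the higher members ran from 53.1% to 63.4% (median 57.8%), that of the lower members from 41.5% to 51.1% (median 44.3%), and these ranges did not overlap. The 9 members not called lay between 46.7% and 55.9%. Across the 42 members the log2 ratio and the GC content had a Spearman's rho of 0.93, and across all genes tested it was 0.90, so the same course ran through the whole data set. These correlations are descriptions over genes of the same 2 libraries. All genes tested were divided by GC content into 4 classes of equal size, at 45.3%, 49.9% and 54.6%. In the class with the least GC, 86.4% of all genes were called lower and 0.307% higher, beside 9 lower and 0 higher of 9 members. In the next class it was 22.6% lower and 4.37% higher, beside 7 and 0 of 11 members. In the class above the median it was 2.53% lower and 50.4% higher, beside 1 and 3 of 8 members. In the class with the most GC it was 0.613% lower and 92.8% higher, beside 0 and 13 of 14 members. The rho with transcript length was −0.70 for the members and −0.25 for all genes, and the median length of higher members was 2408 bases against 5270 for lower ones.

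**Figure D3:**
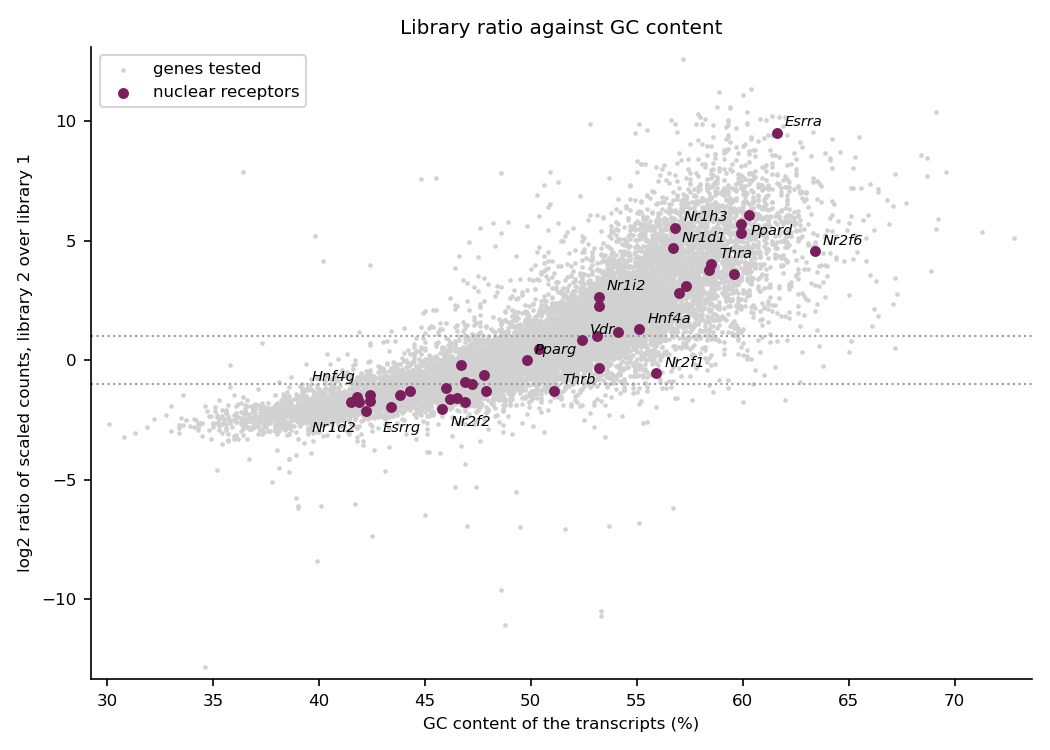
Log2 ratio of scaled counts, library 2 over library 1, against the GC content of each gene's transcripts, for all genes tested (grey) and the 42 nuclear receptors tested (purple), with dotted lines at a 2-fold ratio. The receptors run along the grey cloud from about −2 at the AT-rich end, where Nr1d2 and Esrrg lie, to 9.52 for Esrra, and Nr2f1 and Thrb lie below the cloud's middle.

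Esrra had the highest ratio of the family. It had 2 counts in library 1 and 2473 in library 2, a log2 ratio of 9.52 ± 0.91 (counting SE) whose 95% exact interval runs from 254-fold to 7590-fold, at 61.6% GC. Nr1h2 followed with 19 and 1746 counts (6.06 ± 0.33, 60.3% GC), then Ppard with 65 and 4559 counts (5.69 ± 0.18, 59.9% GC). Nr1h3 had 5 and 343 counts (5.54 ± 0.62), Rxrb 19 and 1051 counts (5.32 ± 0.33) and Nr1d1 46 and 1601 counts (4.68 ± 0.21). All 6 were higher in library 2, at fewer than 100 counts in library 1. The other higher members were Nr2f6 (4.56), Thra (4.02), Rarg (3.75), Rara (3.62), Rxra (3.12), Nr4a1 (2.79), Nr1i2 (2.66), Nr1i3 (2.26), Hnf4a (1.31) and Ppara (1.02), each value being a log2 ratio.

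The lower members were mostly well counted in both libraries. Nr1d2 had the lowest log2 ratio, −2.15 ± 0.05, with 3433 and 1043 counts at 42.2% GC. Nr2f2 followed at −2.06 ± 0.08 with 1334 and 431 counts, then Esrrg at −1.97 ± 0.09 with 1114 and 382 counts. Nr3c1 was at −1.70 ± 0.04 with 5741 and 2376 counts, Hnf4g at −1.56 ± 0.07 and Nr5a2 at −1.30 ± 0.05. Nr3c2, at −1.01 ± 0.03, lay just past the 2-fold bound. By TPM the log2 ratio of Nr3c2 was 0.34 and that of Nr5a2 0.03. The other lower members were Pgr (−1.77), Rora (−1.75), Rorb (−1.74), Esr1 (−1.61), Nr4a3 (−1.59), Nr2c1 (−1.47), Nr1h5 (−1.46), Nr4a2 (−1.30), Thrb (−1.28) and Nr2c2 (−1.18). Of these, Pgr (21 and 8 counts, SE 0.58), Rorb (23 and 9, SE 0.55) and Nr1h5 (21 and 10, SE 0.54) rest on few counts. Where a mean of at least 50 counts was required, 14 members were called lower. The 9 members not called included Vdr, at 0.84 ± 0.03 and 52.4% GC, Pparg, at 0.01 ± 0.08 and 49.8% GC, and Nr1h4, at −0.21 ± 0.07 and 46.7% GC. Rarb (−0.63), Nr6a1 (−0.91) and the low-count members Nr2f1, Nr2e3, Esr2 and Rxrg were not called either.

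With the trend in GC content over all genes taken off, 5 members were called higher and 7 lower. These were 11.9% and 16.7% of the members tested, against a background of 12.4% and 11.1% of all genes. The higher 5 were Esrra at 4.20, Nr1h3 at 2.16, Nr1d1 at 1.35, Nr1i2 at 1.19 and Nr1h2 at 1.15 on the log2 scale, and each of these was also called higher without the correction. The lower 7 were Nr2f1 at −3.44, Thrb at −1.91, Nr2e3 at −1.79, Nr2f6 at −1.32, Nr2f2 at −1.15, Hnf4a at −1.12 and Rara at −1.02, of which Thrb and Nr2f2 were also called lower without it. Thus Hnf4a, Nr2f6 and Rara were called higher before the correction and lower after it. Weighting the GC content of a gene's transcripts by counts in place of TPM ended the calls of Hnf4a (−0.47) and Nr1h2 (just under the 2-fold bound), leaving 4 higher and 6 lower, against a background of 11.9% and 10.6%. Altogether 29 of 42 members lay within 1 log2 unit of the GC trend. That count is by distance alone. The share of all genes within the same distance was not taken, so nothing particular to the members is read from it. Beyond these values, the part that GC content plays in any member's ratio was not tested.

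Paralogous receptors make the difference between the libraries visible, because several pairs trade places. Of 13 pairs compared, 8 changed order of TPM between the libraries. Nr1d1 stood 30.1-fold below Nr1d2 in library 1 and 2.75-fold above it in library 2. Ppard stood 15.7-fold below Pparg and then 3.68-fold above it, Nr2f6 13.7-fold below Nr2f2 and then 7.27-fold above it, and Thra 4.54-fold below Thrb and then 6.56-fold above it. Esrra, on 2 counts in library 1, stood 102-fold below Esrrg there and 16.1-fold above it in library 2. Nr4a1 and Nr4a2, and Nr3c2 and Nr3c1 also changed order. Rara and Rarg changed order by TPM only. By counts Rara stood above Rarg in both libraries, at 29 and 22 in library 1 and 487 and 408 in library 2. The difference between their log2 ratios was −0.13 ± 0.41. The pairs Hnf4a over Hnf4g, Nr1h2 over Nr1h3, Nr2c2 over Nr2c1, Rxra over Rxrb and Esr1 over Esr2 kept their order in both libraries, although Rxra over Rxrb was only 1.01-fold in library 2.

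In 12 of the 13 pairs the member with more GC in its transcripts had the higher log2 ratio, and with the GC trend taken off this was so in 7 of 13. The difference between the log2 ratios of Nr1d1 and Nr1d2 was 6.83 ± 0.22 before and 1.85 after the trend was taken off. For Thra and Thrb it was 5.30 ± 0.19 and then 1.75, and for Ppard and Pparg 5.68 ± 0.20 and then 1.07. For Nr2f6 and Nr2f2 it went from 6.62 ± 0.25 to −0.17, and for Hnf4a and Hnf4g from 2.87 ± 0.07 to −1.27. Nr2c1 and Nr2c2, whose GC content differs by 2.2 points, differed by −0.29 ± 0.12. Which of 2 paralogues has the higher measured TPM therefore differs with the library for 8 of the 13 pairs, although both libraries belong to the same biological replicate.

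**Figure D4:**
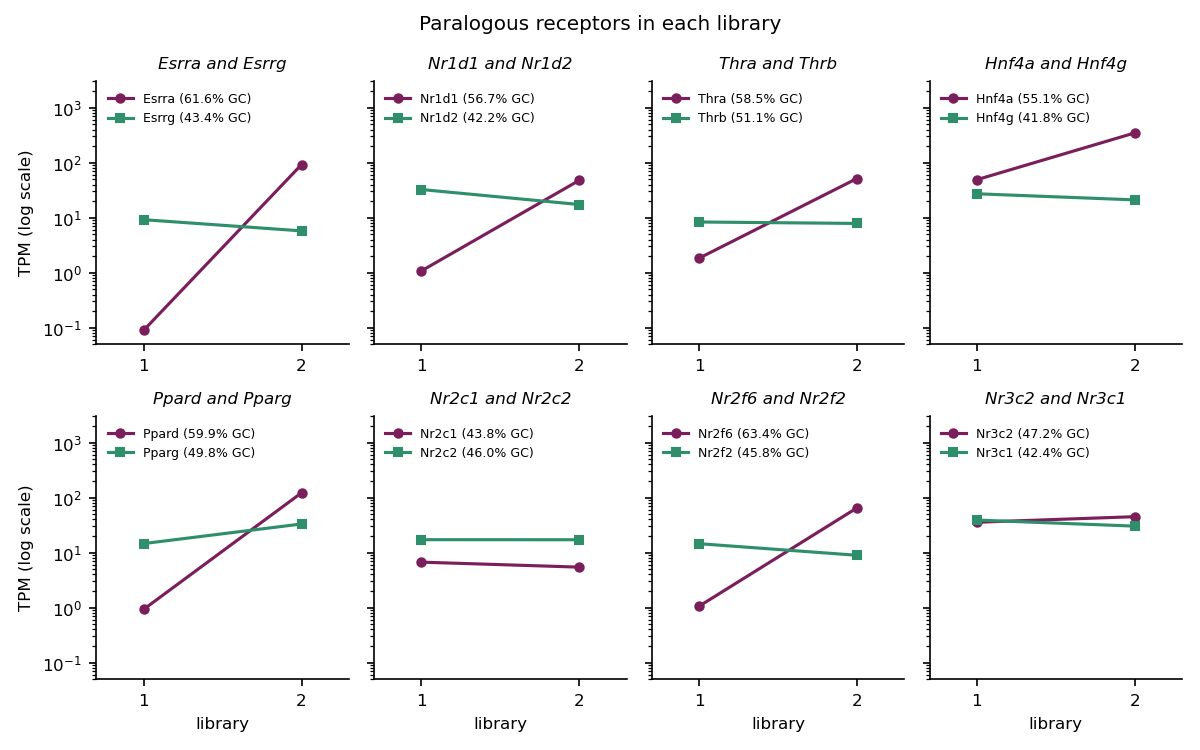
TPM on a log axis of the members of 8 paralogous pairs in library 1 and library 2, each line 1 gene, with the GC content of its transcripts in the legend. The lines cross for Esrra and Esrrg, Nr1d1 and Nr1d2, Thra and Thrb, Ppard and Pparg, Nr2f6 and Nr2f2, and Nr3c2 and Nr3c1, and do not cross for Hnf4a and Hnf4g or Nr2c1 and Nr2c2.

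Strand matters for some members. The strand setting of the counting is not given in the sources used here, and 11 members share exon bases with a gene on the opposite strand, so reads of the partners may have been counted together. Thra and Nr1d1, which overlap tail to tail, share 263 bases. Nr1i3 shares 3304 bases with Tomm40l, Nr2c2 shares 4590 with Mrps25, Rarb 1793 with Top2b, Nr2f6 1622 with Ocel1 and Esrra 73 with Trmt112. Levels of these members are uncertain to that extent.

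Transcript shares were read for the 18 members with a mean of at least 5 TPM and at least 50 counts in each library. In 17 of the 18 the transcript with the largest share was the same in both libraries, and by shares of transcript counts it was the same in 18. The exception by TPM was Thra, which had 68 counts in library 1. Thra-201 has 492 codons, the length of the alpha 2 form that does not bind thyroid hormone, and held 24.9% of the gene's TPM in library 1 and 49.9% in library 2. Thra-202 has 410 codons, the length of the hormone-binding alpha 1 form, and held 23.8% and 37.4%. The non-coding Thra-207 held 38.2% in library 1 and 3.05% in library 2, on 20.3 and 27.3 counts.

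For Pparg the shorter form led in both libraries. Pparg-202, with 475 codons, the gamma 1 form found in epithelium and other tissues, held 96.0% and 88.9%. Pparg-201, with 505 codons, the gamma 2 form typical of fat cells, held 4.04% and 11.1%, on 22.4 and 83.6 counts. The summed level of the fat-cell markers was also higher in library 2, as given below, and their part in this was not tested. Nr1h4-201 held 53.6% in library 1 and 74.4% in library 2 and Nr1h4-202 held 24.9% and 13.9%. Nr1i2 had 1 transcript in the tables.

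In most of the members read, the leading transcript had a smaller share of TPM in library 2 than in library 1. Nr1h4-201, given above, had a larger one. Esrrg-201 held 98.3% in library 1 and 42.1% in library 2, where Esrrg-203 held 40.0%. Hnf4g-202 held 96.7% and 61.0%, with Hnf4g-201 taking the rest. Nr5a2-201 held 99.2% and 70.4%, and Nr5a2-202, held 0.67% and 22.8%. So did the leading transcripts of Nr3c1 (99.4% and 81.0%), Nr3c2 (95.8% and 83.8%) and Nr2f2 (91.8% and 73.4%), and those of the GC-rich Ppard (92.8% and 78.1%) and Rxra (100% and 88.5%). Nr2c2 (98.8% and 98.5%) and Nr2c1, with all of its TPM on 1 transcript in both libraries, showed little or no such difference. By shares of transcript counts, Nr3c1 went from 99.8% to 91.0%, Nr3c2 from 95.6% to 94.1% and Nr2f2 from 96.9% to 88.3%. Ppard went from 96.9% to 91.1% and Rxra from 100% to 98.8%, and all of these differences are smaller than by TPM. The short Nr3c2-206, of 612 bases, held 12.1% of TPM in library 2 on 33.8 counts. Esrrg (99.9% and 46.7%), Hnf4g (96.8% and 62.1%) and Nr5a2 (99.5% and 79.0%) kept wide differences by counts. With 1 library on each side, no test of these shares was made.

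**Figure D5:**
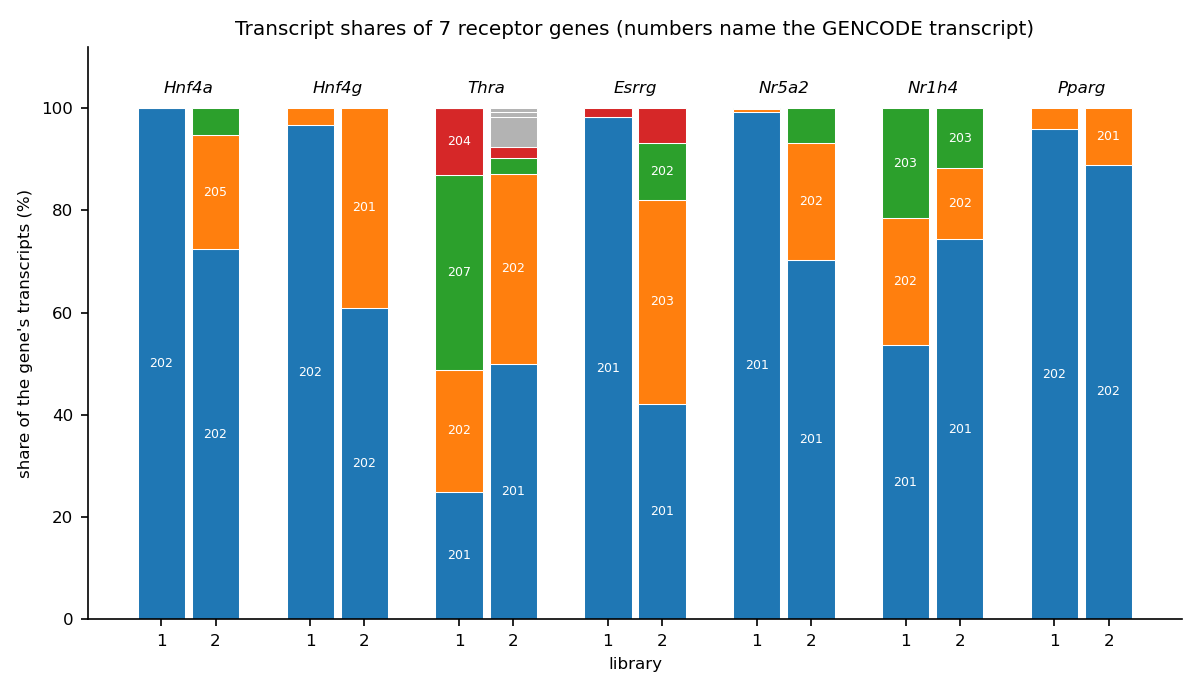
Share of each transcript in its gene's TPM, in percent, in library 1 and library 2 for 7 receptor genes, with the number of the GENCODE transcript written in blocks of 9% or more and grey for the rest. A single block fills 96.7% or more of Hnf4a, Hnf4g, Esrrg and Nr5a2 in library 1, and 42.1% to 72.4% in library 2.

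Hnf4a has a distal and a proximal promoter, known as P2 and P1, and both are printed because annotated transcripts start at each. The gene lies on chromosome 2 (GRCm38, 163506808 to 163572910, plus strand), and the proximal start lies 40298 bases downstream of the distal one in RefSeq. The lines give RefSeq promoter sequence of GRCm38.p6 on the plus strand, at chr2:163506607-163506807 for the distal and chr2:163546905-163547154 for the proximal promoter.
Distal promoter: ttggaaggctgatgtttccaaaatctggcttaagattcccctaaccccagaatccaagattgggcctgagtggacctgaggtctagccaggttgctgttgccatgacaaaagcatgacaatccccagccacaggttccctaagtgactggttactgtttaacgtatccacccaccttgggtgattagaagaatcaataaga
Proximal promoter: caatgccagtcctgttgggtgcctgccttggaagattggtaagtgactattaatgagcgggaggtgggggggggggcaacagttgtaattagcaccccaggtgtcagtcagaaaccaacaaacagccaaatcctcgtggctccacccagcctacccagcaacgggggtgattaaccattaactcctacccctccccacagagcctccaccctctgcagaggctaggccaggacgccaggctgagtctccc

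The distal window of 201 bases has 47.3% GC and the proximal window of 250 bases has 57.6%. Searched on both strands for AGGTCA (the hexamer that many nuclear receptors recognise), TATAAA and CACGTG, neither window held a match, which says only that these letters are not in these windows. In RefSeq promoters of 300 bases, AGGTCA occurs in 16.3% of 32851 windows of all genes and in 18.8% of 64 windows of 43 members, TATAAA in 13.6% and 12.5%, and CACGTG in 7.15% and 9.38%.

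The transcript that starts at the distal promoter, Hnf4a-205, is an annotated model of 431 bases. It had 0 counts in library 1 and 284.2 in library 2, or 0 and 78.2 TPM once corrected for so short a length. It made up 22.5% of the gene's TPM in library 2 and 1.70% of its counts. No other coding model of the gene starts there, so reads from further along a distal transcript would be assigned to other models. Neither share therefore measures use of the promoters. The GC content was 60.8% in Hnf4a-205 and 53.7% in Hnf4a-202. The proximal Hnf4a-202 had 4941.1 and 15138.4 counts, or 49.2 and 252 TPM, and the proximal Hnf4a-201 had 0.9 and 1078.3 counts. The TPM of 348 given above for Hnf4a in library 2 includes the short model, and the proximal transcripts alone still exceed the 178 TPM of Vdr. By counts, nearly all of Hnf4a in library 1 was assigned to Hnf4a-202, and in library 2 the share was 91.7%.

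Partners, ligand enzymes and target genes were read in 17 lists of 115 genes outside the family, of which 98 were tested. Of these 34 were called higher in library 2 (34.7%, against 36.9% of all genes) and 22 lower (22.4%, against 28.1%). With the GC trend taken off, 9 were higher (9.18%, against 12.4%) and 13 lower (13.3%, against 11.1%). These shares are near the background. Some genes, such as Sgk1, Hsd11b2 and Klf9, stand in more than 1 list. By the ratio of TPM the split was 56 higher and 3 lower, against 54.4% and 5.28% of all genes.

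Coregulators, which link receptors to chromatin, gave calls in both directions. Of 13 coactivators, 3 were called higher and 3 lower (median log2 ratio −0.48). Ncoa4 was the most abundant at 71.2 and 83.2 TPM, yet on scaled counts it was called lower at −1.07 ± 0.03. Kat2b, an acetyltransferase, was the lowest at −1.71 ± 0.05, and Carm1, an arginine methyltransferase, the highest called at 3.71 ± 0.21. Of 8 corepressors, 2 were higher and 4 lower (median −0.98). Ncor1, the main bridge from unliganded receptors to histone deacetylase, was at 82.4 and 93.4 TPM, and was not called at −0.87 ± 0.03. Tbl1xr1, which helps exchange corepressors, had the lowest ratio of the list, −1.87 ± 0.04. Of 8 chaperones of steroid receptors, 4 were higher and 2 lower. Hspa8 at 334 and 885 TPM and Hsp90ab1 at 392 and 583 TPM led in level, and neither was called.

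Enzymes that make or remove ligands were led by Hsd11b2, which inactivates glucocorticoids and so leaves the mineralocorticoid receptor to aldosterone. It stood at 22.0 TPM in library 1 and 274 TPM in library 2, called higher at 2.47 ± 0.05 and, with the GC trend taken off, lower at −1.39. Of the 7 steroid enzymes tested, 3 were higher and 0 lower, and Hsd17b2 was at 30.4 and 167 TPM. Of 7 retinoid enzymes tested, 1 was higher and 2 lower. Aldh1a1, a maker of retinoic acid, was at 50.3 and 50.1 TPM and was called lower on scaled counts, at −1.17 ± 0.05. Dio1, a thyroid hormone deiodinase, was at 36.0 and 74.9 TPM, not called. The vitamin D hydroxylase Cyp2r1 was lower at −2.97 ± 0.33, with 130 and 22 counts, also with the GC trend taken off (−1.17).

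Target genes known from textbooks were counted in the same way. Of 5 mineralocorticoid receptor targets, 4 were called higher and 0 lower (median 2.13, or −0.22 with the GC trend taken off). Scnn1a, a subunit of the epithelial sodium channel, stood at 7.34 and 91.4 TPM and was called higher at 2.88 ± 0.07. Sgk1, the kinase induced by both corticosteroid receptors, was at 72.2 and 145 TPM but was not called, at −0.31 ± 0.03. Of 7 glucocorticoid receptor targets, 2 were higher and 1 lower, and Tsc22d3 was at 42.8 and 66.7 TPM but was not called, at −0.38 ± 0.05. Among 3 vitamin D receptor targets tested, the calcium channel Trpv6 was higher at 2.39 ± 0.23 with 45 and 320 counts, the calcium pump Atp2b1 lower at −1.58 ± 0.02, and S100g, which encodes calbindin-D9k, was not called at 0.08 ± 0.26. The remaining gene of that list, Cyp24a1, had 0 counts in both libraries and was not tested.

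Metabolic targets included the most abundant gene of these lists. Cyp2c55, a colon cytochrome P450 that responds to PXR and CAR, stood at 1152 TPM in library 1 and 916 TPM in library 2, called lower at −1.50 ± 0.01, and at 0.15 with the GC trend taken off. Of 6 PXR and CAR targets tested, 2 were higher and 2 lower. Of 8 PPAR targets tested, 4 were higher and 0 lower; Plin2, a lipid droplet coat, was higher at 3.16 ± 0.10 and at 2.29 with the GC trend taken off. Of 7 LXR targets, 2 were higher and 1 lower, with Srebf1 at 0.29 and 42.4 TPM on 15 and 1952 counts. Of the FXR targets only 2 of 6 could be tested, Slc51b at 12.2 and 25.6 TPM (not called) and Fabp6 on 4 and 23 counts (called higher).

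Of the remaining lists, the 7 HNF4A targets had 4 higher and 2 lower calls. Cdh17, at 267 and 255 TPM, was called lower at −1.23 ± 0.02, and Ces2c, at 209 and 396 TPM, was not called at 0.90 ± 0.03. Among 5 REV-ERB and ROR targets, Nfil3 was higher at 2.29 ± 0.31 and Clock lower at −1.73 ± 0.03, while Arntl, at 22.6 and 43.0 TPM, was not called. The 7 thyroid hormone and retinoic acid targets had 2 higher calls, led by Hr with 13 and 942 counts, and 1 lower, Klf9. The 4 tested estrogen and progesterone receptor targets had 1 higher call, Fkbp5 at 21.9 and 45.4 TPM, and 2 lower, Areg and Pgr itself.

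Markers of the cell types in the tissue also differed between the libraries. Sums are given here as TPM rescaled over nuclear genes, since the mitochondrial share differs. The 7 epithelial markers, led in mean level by Krt8, summed to 2597 in library 1 and 9803 in library 2. Of these markers 5 were called higher and 0 lower, and 2 higher and 2 lower with the GC trend taken off. The sum in library 2 is mostly keratin: by unscaled TPM, Krt8 was at 60.7 and 2931 and Krt19 at 33.7 and 2034. Epcam and Cdh1, the highest of the list in library 1, were not called, at −0.08 ± 0.01 and −0.05 ± 0.01. With the GC trend taken off, Epcam was called lower at −1.37. The 6 smooth muscle markers, led by Actg2, summed to 1002 and 6126, with 6 higher and 0 lower, and 5 and 0 with the trend taken off. The 6 fibroblast markers, led by Col3a1 and Dcn, summed to 2025 and 1071, with 1 higher and 2 lower, and 0 and 3 with the trend taken off; their unscaled TPM sums go the other way, 661.4 and 837.3. The 6 macrophage markers summed to 84.4 and 239 (4 higher and 1 lower, then 3 and 0) and the 5 endothelial markers to 35.5 and 104.4 (4 and 0, then 1 and 0). The 6 enteric neuron markers summed to 79.4 and 66.5 (1 higher and 2 lower, then 0 and 2), and their unscaled TPM sums, 25.9 and 52.0, again go the other way. The 6 adipocyte markers, led by Fabp4 and Adipoq, summed to 130.7 and 202.6 (3 higher and 0 lower, then 2 and 0). Markers of the female reproductive tract summed to 8.05 and 10.1, with 1 of 5 at 0 in both libraries, and liver markers to 12.5 and 51.9, most of it Ttr, with Cyp7a1 at 0. Their part in the receptors' ratios was not tested.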

How the data were processed

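Polyadenylated RNA of the sigmoid colon of 1 mouse was measured in 2 technical libraries. Per the file headers, the authors' gene tables hold expected counts (model-based, so not always whole), TPM, a posterior mean of the TPM, and FPKM. The deposited transcript tables add each transcript's share of its gene as a percent, per the file headers. Per the text files beside the deposited tables, the assembly is mm10 with GENCODE M4. No source used here names the aligner, the quantifier or the strand setting.

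Symbols came from a gene name table that matched 42462 of 43346 Ensembl genes. Positions, transcript names and sequences came from GENCODE M21 on GRCm38, the same assembly, and 97.9% of 103639 transcripts had a sequence there. GC content per gene averages its transcripts by their summed TPM. Promoters came from RefSeq (GRCm38.p6); 43 of 47 members matched. No protein table was used: fingers were found in the coding sequences of GENCODE transcripts and compared as translated codons.

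Depth was 25843064 and 20681574 expected counts, rounded for tests. Genes with a mean of at least 10 counts (15705) entered a two-sided exact binomial test given TMM effective library sizes (a ratio of 1.35 for library 2 against library 1, from edgeR 4.0.16 under R 4.3.3), since 1 library on each side leaves edgeR's quasi-likelihood test no residual degrees of freedom. P-values were adjusted by Benjamini-Hochberg, a call needed an adjusted p under 0.05 and 2-fold, and ratios used a prior count of 0.5. GC and length trends were lowess fits with a fraction of 0.2 (statsmodels 0.14.6, scipy 1.17.1, pandas 2.3.3 and numpy 2.4.6 in Python 3.11.15), and figures were drawn with matplotlib 3.10.9. Tests were tried on simulated data first. The alternatives were DESeq2 1.42.0 size factors, nuclear totals as library sizes, ratios of TPM, other count filters and prior counts, edgeR's exact test, and GC or length trends taken off.

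The members and gene lists were chosen with earlier results of these data known. Named in the text are all 47 members, of each pathway list the 3 genes with the highest mean TPM and the called genes with the highest and lowest ratio, and of each marker list the 2 genes with the highest mean TPM; not every gene the rule takes is printed. Of the list genes, Epcam, Cdh1, Cyp24a1 and Cyp7a1 are named outside that rule. Members with at most 3 counts in both libraries are named only.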

Additional observations from a re-analysis of the deposited data

How the results depend on the processing

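Under DESeq2 size factors, scaling to nuclear totals, other count filters and a prior count of 5, 0 called members changed direction. Genes called higher went from 5795 to 1942 with the GC trend taken off, 1689 with GC and length trends taken off together, 1876 with GC weighted by counts (the last 2 alternatives were chosen after seeing the data) and 0 by edgeR's exact test, where 901 had an unadjusted p under 0.05. Genes called lower went from 4414 to 1740, 1832, 1671 and 0, and to 829 on the ratio of TPM. In the same order, the 16 higher members became 5, 5, 4 and 0, and the 17 lower members 7, 6, 6 and 0, or 1 on the ratio of TPM. Of pathway genes, the 34 higher became 9, 9, 9 and 0, or 56 on the ratio of TPM, and the 22 lower became 13, 13, 13 and 0, or 3 on the ratio of TPM and 14 with nuclear totals. The member median of −0.27 turned to 0.01 with nuclear totals, 1.07 on the ratio of TPM and 0.01 with a mean count of at least 50. Beyond the construction of each alternative, the cause was not tested.

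Members called with or without an alternative changed sign as follows, in log2 ratios; changes of sign without a call on either side, such as Vdr at −0.32 and Nr1h4 at 0.49 with the GC trend taken off, are not listed. On the ratio of TPM these were Nr3c2 0.34, Nr2f1 1.61 and Nr5a2 0.03. With the GC trend taken off they were Thra −0.16, Rara −1.02, Rarg −0.39, Rxra −0.53, Ppara −0.42, Nr1h5 0.15, Hnf4a −1.12, Hnf4g 0.15, Rora 0.01, Nr2f6 −1.32 and Nr4a1 −0.66. With GC weighted by counts they were Nr3c1 0.02, Thra −0.30, Rara −1.06, Rarg −0.41, Rxra −0.42, Nr1h5 0.13, Hnf4a −0.47, Hnf4g 0.15, Rora 0.08, Rorb 0.01, Nr2f6 −2.32, Nr4a1 −0.69 and Nr5a2 0.05. With GC and length trends taken off they were Nr3c1 0.18, Thra −0.20, Rara −0.99, Rarg −0.37, Rxra −0.35, Ppara −0.43, Nr1h5 0.18, Hnf4a −1.0, Hnf4g 0.14, Rora 0.30, Rorb 0.24, Nr2f6 −1.52, Nr2c1 0.01, Nr4a1 −0.66 and Nr5a2 0.13.

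Of levels, 14 members in place of 27 reached 5 TPM in both libraries, and the neighbouring pairs whose ranges do not overlap went from 4 to 1 over nuclear genes and 2 by FPKM. Leaving out either library, the summed TPM ran from 369 to 1444 and the members at 1 TPM from 27 to 36. No paired analysis was possible because both libraries form 1 group. With 1 mouse, no value covers variation between mice. Ratios of members with under 100 counts in library 1 rest on few molecules.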
